A study of Mus musculus with 12 samples.

Results

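The data describe 41 genes of the urea cycle and of amino acid breakdown in mouse liver, read from an RNA-Seq matrix of 22456 genes. The genes were chosen by name as enzymes of these pathways, at a time when earlier results of these data were known, and were grouped by pathway: 6 genes of the urea cycle, 6 of glutamine, glutamate, and the transaminases, 5 each of tyrosine, tryptophan, and branched-chain amino acid breakdown, 4 each of serine, threonine, glycine, and glyoxylate metabolism and of histidine breakdown, 3 of proline and ornithine, 2 of transsulfuration, and 1 of lysine. All 41 were in the matrix and passed the filter on low values, with means over the libraries of 27.3 to 2280 RPKM, a read count scaled by transcript length and by the mapped reads of the library. Livers came from 12 male BALB/cByJ mice, 3 in each of 4 groups: *Lpin1*+/+ fasted, *Lpin1*-/- fasted, *Lpin1*+/+ refed, and *Lpin1*-/- refed. *Lpin1*-/- mice carry the spontaneous fatty liver dystrophy (*fld*) mutation in every tissue from birth, and the *Lpin1*+/+ mice were littermates from the same colony. Mice were 2 to 8 months old per the study's methods, without an age for each library. Every mouse was kept alone for the 16-hour fast, and refed mice then had chow for 5 hours, so that refed livers were also collected later in the day. The comparisons asked how far the expression and splicing of these enzymes differed by genotype in each feeding state, and by feeding state in each genotype.

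The liver is the main site where amino acids lose their nitrogen. Transaminases and glutamate dehydrogenase pass that nitrogen to ammonia and aspartate, and the urea cycle, which runs partly in mitochondria and partly in the cytosol of hepatocytes, turns both into urea for excretion. The carbon skeletons that remain feed glucose and ketone body production, and for this reason many of these enzymes are known to rise in liver during fasting, under glucagon and glucocorticoids, and to fall after a meal. Lipin 1, the product of *Lpin1*, is a phosphatidic acid phosphatase of glycerolipid synthesis and a nuclear coactivator of fatty acid oxidation genes.

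The libraries were close in depth. Mapped reads ranged from 0.866 to 1.16 times those of *Lpin1*+/+ fasted replicate 1, from the steps between low RPKM values. As a check of the genotype, *Lpin1* itself was at 22.0, 0.726, and 1.76 RPKM in fasted *Lpin1*+/+ liver and at 0.0597, 0.0566, and 0.0368 in fasted *Lpin1*-/- liver. In refed liver it was at 2.92, 0.784, and 2.77 RPKM in *Lpin1*+/+ and at 0.00573, 0.0238, and 0.00962 in *Lpin1*-/-. Every *Lpin1*-/- library lay below every *Lpin1*+/+ library, although on the log2(RPKM + 1) scale, which compresses low levels, the difference did not pass the test (adjusted p = 0.0562 fasted and 0.231 refed). *Lpin1*+/+ fasted replicate 1 stood apart from its group: the 41 genes made up 3.20% of its summed RPKM and 1.56% and 1.62% of that of its group mates. For this reason, results that rest on that library are given with and without it. Markers of hepatocytes fit the labelled tissue (*Alb* at 11780 to 45600 RPKM), and kidney markers were at no more than 0.0468 RPKM in sum. The summed level of 11 markers of hepatocytes around the central vein was 7078 to 8808 RPKM in fasted *Lpin1*+/+ liver and 2148 to 6280 in fasted *Lpin1*-/- liver, with 4 of 11 lower past the test. *Cyp2e1* alone made up 6054 to 7925 and 1310 to 5144 RPKM of these sums, and the median log2 fold change of the 11 was -0.225. The 7 markers of hepatocytes around the portal vein summed to 1832 to 4557 and 1344 to 2070 RPKM, with a median of -0.643 and none past the test. The 8 markers of immune cells summed to 156 to 320 and 304 to 812 RPKM with none past the test. The 7 markers of stellate cells and fibroblasts summed to 66.6 to 156 RPKM in fasted *Lpin1*+/+ and 199 to 291 in fasted *Lpin1*-/- liver, without overlap and with 1 called higher, and 1 of 6 endothelial markers was called higher. The 5 biliary markers reached 452 RPKM in *Lpin1*-/- fasted replicate 1, of which *Spp1* made up 430.4, while the *Lpin1*+/+ fasted libraries lay at 32.1 to 45.8. In refed liver the 6 hepatocyte markers summed to 34110 to 61950 RPKM in *Lpin1*+/+ and 63310 to 67430 in *Lpin1*-/-, without overlap, with a median log2 fold change of 0.43 and none past the test. *Lpin1*+/+ refed replicate 2 had the lowest hepatocyte sum of the 12 libraries and the highest immune sum of the refed libraries, 714 RPKM. The part of these shifts in the results was not tested, and in whole liver fewer cells of a type and less RNA per cell cannot be told apart.

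By genotype, 14 genes from 7 of the 10 pathways differed in refed liver, all higher in *Lpin1*-/-, and 12 differed in fasted liver, in both directions. In refed liver 14 of 41 genes were higher in *Lpin1*-/- (34.1%, with 2.6% of all 11507 genes tested called higher) and 0 were lower (4.07% of all genes), with 2 lower at an unadjusted p under 0.05. Here and below, the share of all genes at an unadjusted p was not counted. Of all genes tested, 14.8% refed and 10.7% fasted had every *Lpin1*-/- library above every *Lpin1*+/+ library. For 19.1% and 22.2% every *Lpin1*-/- library lay below. The sums of hepatocyte markers given above did not overlap in the same comparison, and without *Lpin1*+/+ refed replicate 2 the count was 10. The 14 were *Nags*, *Ass1*, *Asl*, *Arg1*, *Gls2*, *Got1*, *Hgd*, *Tdo2*, *Kynu*, *Sds*, *Sdsl*, *Agxt*, *Cth*, and *Aass*. In fasted liver 7 were higher (17.1%, against 5.63% of all genes): *Asl*, *Got1*, *Sds*, *Sdsl*, *Agxt*, *Cth*, and *Aass*, all of them also among the 14. A further 5 were lower in fasted *Lpin1*-/- liver (12.2%, close to the 13.2% of all genes called lower there): *Otc*, *Gldc*, *Amdhd1*, *Ftcd*, and *Hibch*. The median log2 fold change of the 41 genes was 0.58 refed and -0.12 fasted, beside -0.068 and -0.14 over all genes tested. After rescaling each library by its median ratio, the fasted median of the 41 genes was 0.083, so its sign depends on the scaling. Without *Lpin1*+/+ fasted replicate 1, 12 genes were again called in fasted liver (9 higher, 3 lower), of which 8 were the same: *Agxt*, *Ftcd*, *Gldc*, and *Otc* were lost and *Ass1*, *Gpt2*, *Gstz1*, and *Tat* were gained, and the median was 0.10. Of all genes, 17.2% were called in that fit, in either direction. Without *Lpin1*+/+ fasted replicate 3 the fasted count was 6, and without *Lpin1*-/- refed replicate 1 the refed count was 9.

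**Figure D1:**
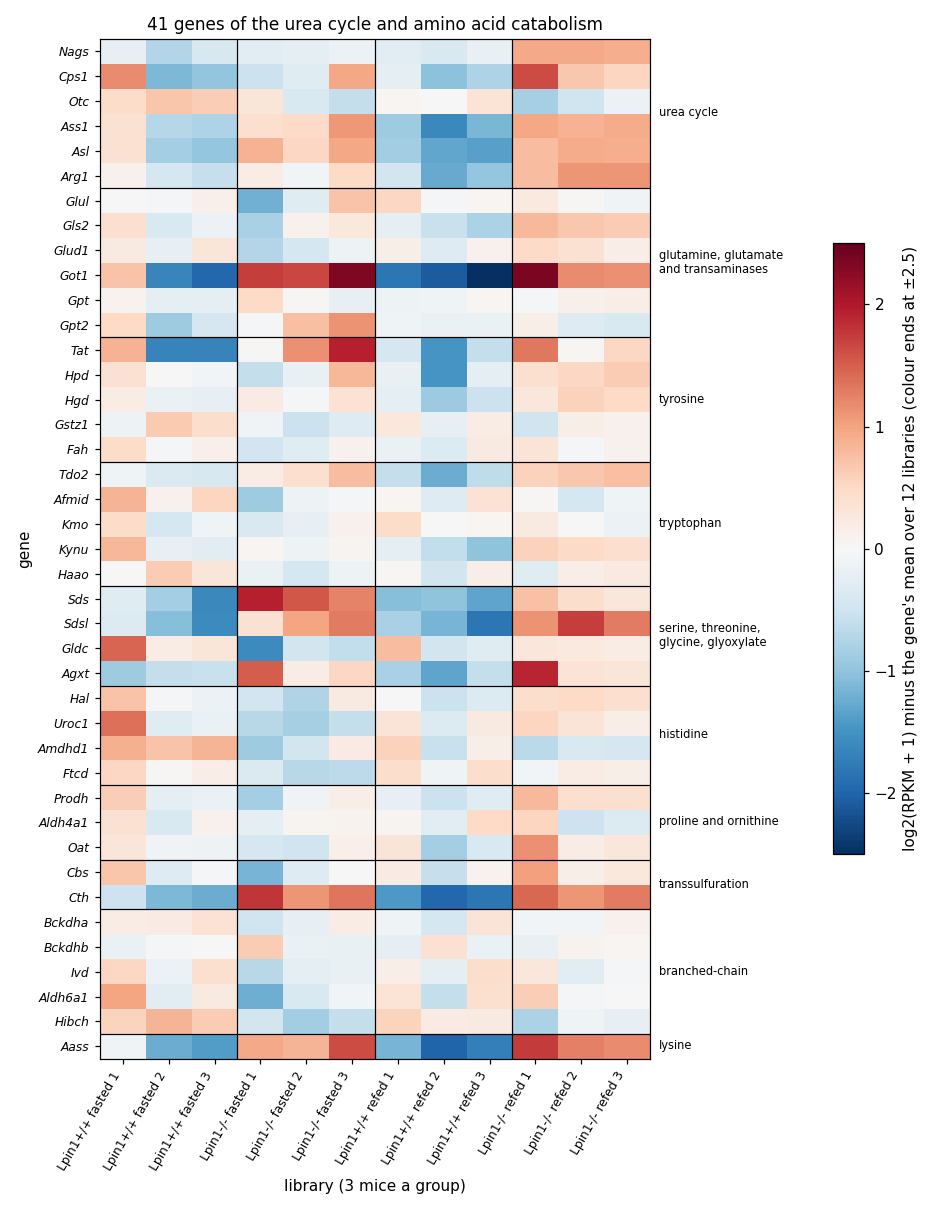
Heat map of the 41 genes (rows, grouped by pathway) in the 12 libraries (columns, 3 mice a group). Colour is log2(RPKM + 1) minus the gene's mean over the 12 libraries. *Got1*, *Sds*, *Sdsl*, *Cth*, and *Aass* were above their means in nearly every *Lpin1*-/- library, and *Lpin1*+/+ fasted replicate 1 was higher than its group mates for *Cps1*, *Tat*, *Gldc*, and *Uroc1*.

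**Figure D2:**
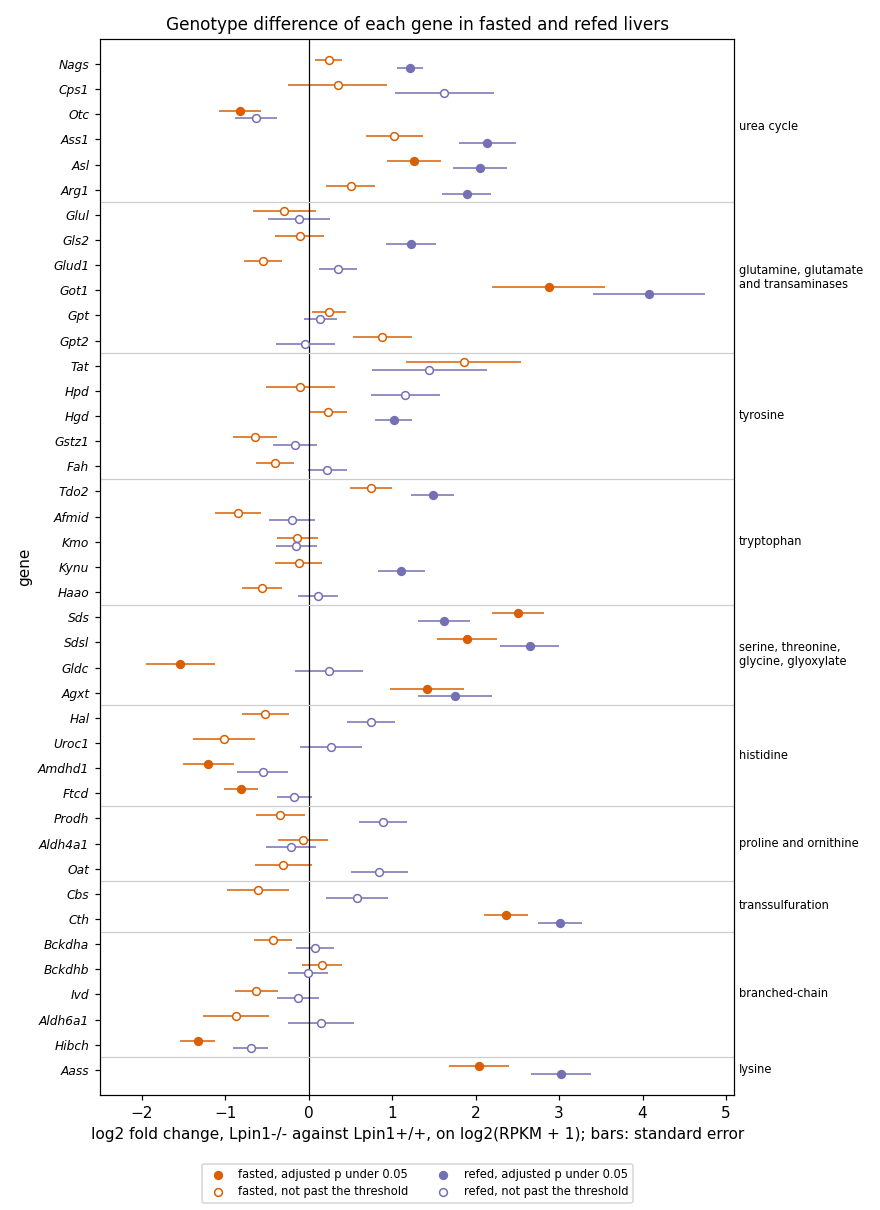
Log2 fold change of each gene, *Lpin1*-/- against *Lpin1*+/+, in fasted (orange) and refed (purple) liver on the log2(RPKM + 1) scale, with the standard error of the limma fit. Filled points passed an adjusted p of 0.05: 12 in fasted and 14 in refed liver.

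In the urea cycle, 4 of 6 genes were higher in refed *Lpin1*-/- liver, and the enzyme that makes citrulline was not among them. *Nags* (chromosome 11, 102145513 to 102149477, plus strand, GRCm38), which makes the N-acetylglutamate that switches on the cycle's entry enzyme, was at 46.4, 43.0, and 49.6 RPKM in refed *Lpin1*+/+ liver and at 109.5, 110.1, and 106.1 in refed *Lpin1*-/- liver. The groups did not overlap, and the spread within each was small (log2 fold change 1.21, SE 0.16, adjusted p = 0.00226). In fasted liver the genotypes overlapped in *Nags*, at 48.9, 33.7, and 42.5 RPKM and at 47.1, 48.4, and 51.2 RPKM (log2 fold change 0.24, SE 0.16, adjusted p = 0.327). *Ass1* (chromosome 2, 31470207 to 31520672, plus strand), which joins citrulline and aspartate, was at 901, 548, and 754 RPKM in refed *Lpin1*+/+ and 3286, 3061, and 3165 in refed *Lpin1*-/- liver (log2 fold change 2.14, SE 0.342, adjusted p = 0.00633). In fasted liver *Ass1* was at 2183, 1027, and 976 RPKM in *Lpin1*+/+ and at 2244, 2334, and 3540 in *Lpin1*-/-. Every *Lpin1*-/- value was again the higher, but replicate 1 of *Lpin1*+/+ came close to them and the difference missed the threshold (log2 fold change 1.03, adjusted p = 0.0577). Without that library it was 1.40 with an adjusted p of 0.00972, the lowest of a range up to 0.208 over 18 alternatives. Here and below these are the alternatives that give a new adjusted p, without the further condition on the size of the fold change.

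*Asl* (chromosome 5, 130011258 to 130029247, minus strand), which releases arginine and fumarate from argininosuccinate, was higher in *Lpin1*-/- liver in both states. It was at 829, 356, and 325 RPKM in fasted *Lpin1*+/+ and 1167, 912, and 1251 in fasted *Lpin1*-/- liver (log2 fold change 1.26, SE 0.325, adjusted p = 0.0201). In refed liver it was at 348, 259, and 249 RPKM in *Lpin1*+/+ and 1093, 1211, and 1206 in *Lpin1*-/- (log2 fold change 2.05, SE 0.325, adjusted p = 0.00611). No library of 1 genotype reached those of the other in either state. *Arg1* (chromosome 10, 24915221 to 24927484, minus strand), which splits arginine into urea and ornithine, had the highest mean RPKM of the 41 genes over the 12 libraries. It was at 1449, 834, and 1030 RPKM in refed *Lpin1*+/+ and at 3431, 4304, and 4309 in refed *Lpin1*-/- liver (log2 fold change 1.89, SE 0.294, adjusted p = 0.00549), while the fasted groups overlapped (2149, 1484, and 1351 against 2286, 1904, and 2817 RPKM).

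*Cps1*, which commits ammonia to the cycle, varied too much between mice for a call. It was at 1340, 274, and 300 RPKM in fasted *Lpin1*+/+, 411, 479, and 1157 in fasted *Lpin1*-/-, 501, 292, and 347 in refed *Lpin1*+/+, and 1830, 942, and 866 in refed *Lpin1*-/- liver. The refed groups did not overlap, with a log2 fold change of 1.62 and an SE of 0.593 (adjusted p = 0.127, and 0.036 to 0.363 over 18 alternatives). *Otc* on the X chromosome, which makes citrulline from ornithine, ran the other way: 257, 300.2, and 284 RPKM in fasted *Lpin1*+/+ and 228, 142, and 122 in fasted *Lpin1*-/- liver. That decrease was small and passed the threshold narrowly (log2 fold change -0.82, SE 0.252, adjusted p = 0.042, called in 6 of 18 alternatives). In refed liver *Otc* was at 194, 187, and 236 RPKM against 104, 132, and 169, again without overlap but not past the test (log2 fold change -0.63, adjusted p = 0.166). Summed over the 6 genes, the cycle stood at 2755 ± 643 RPKM (SD, n = 3) in refed *Lpin1*+/+ and 9811 ± 47.2 in refed *Lpin1*-/- liver, and at 4520 ± 1983 and 7047 ± 1662 in fasted liver. These sums are dominated by *Arg1* and *Ass1*.

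**Figure D3:**
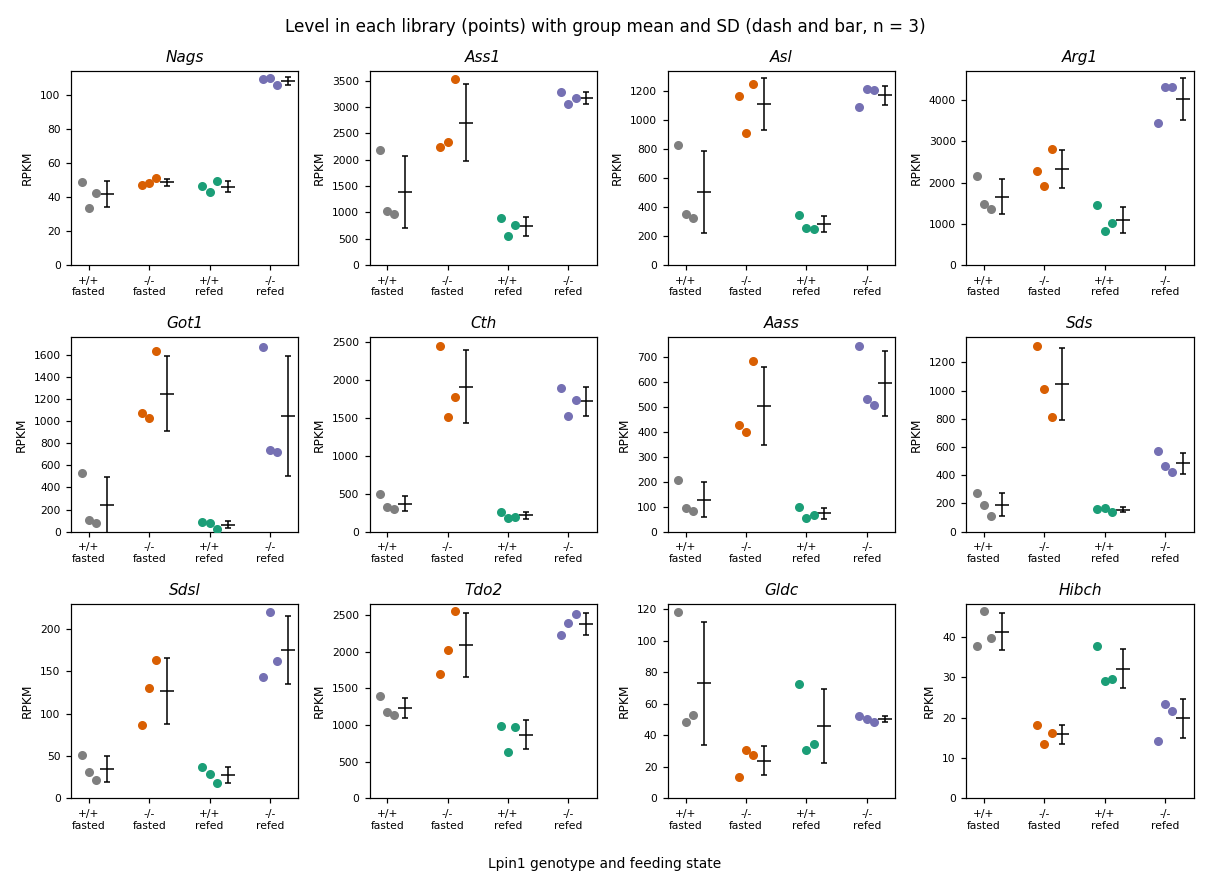
RPKM of 12 genes in each library (points) with the mean and SD of each group (dash and bar, n = 3), each gene on its own linear axis from 0. The 3 *Lpin1*-/- refed values of *Nags* lie at 106.1 to 110.1, above every other library, and *Got1*, *Cth*, *Aass*, and *Sdsl* are high in both *Lpin1*-/- groups.

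Of the 6 genes of glutamine, glutamate, and the transaminases, 1 was called by genotype in both states, *Got1* (chromosome 19, 43499752 to 43524605, minus strand), the cytosolic aspartate aminotransferase, which supplies aspartate to the urea cycle. It was at 91.8, 76.1, and 25.2 RPKM in refed *Lpin1*+/+ liver and at 1671, 739, and 721 in refed *Lpin1*-/- liver, a 16.8-fold difference on the fitted scale (log2 fold change 4.07, SE 0.673, adjusted p = 0.00718). In fasted liver it was at 531, 102, and 82.7 RPKM in *Lpin1*+/+ and at 1070, 1031, and 1636 in *Lpin1*-/- (log2 fold change 2.87, SE 0.673, adjusted p = 0.0136). The lowest *Lpin1*-/- value was above the highest *Lpin1*+/+ value in both states, even with *Lpin1*+/+ fasted replicate 1, and without that library the fasted log2 fold change was 3.71 (adjusted p = 0.00204, the lowest of a range up to 0.0646).

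The alanine aminotransferases did not pass the test by genotype. *Gpt*, the cytosolic form, stayed within 178 to 298 RPKM in all 12 libraries. *Gpt2*, the mitochondrial form, was at 206, 77.9, and 108 RPKM in fasted *Lpin1*+/+ and at 143, 245, and 315 in fasted *Lpin1*-/- liver (log2 fold change 0.88, SE 0.354, adjusted p = 0.106), and at 110.4 to 160 RPKM in all 6 refed libraries. Of the enzymes that handle glutamine, *Gls2*, the liver glutaminase that releases ammonia, was higher in refed *Lpin1*-/- liver, at 199, 180.3, and 176 RPKM against 97.0, 76.9, and 64.7 (log2 fold change 1.23, SE 0.294, adjusted p = 0.0326, called in 9 of 18 alternatives). It overlapped between genotypes in fasted liver, at 152, 86.2, and 103 against 64.2, 122, and 136 RPKM. *Glul*, glutamine synthetase, the first gene of its group and one expressed around the central vein, was at 295, 286, and 325 RPKM in fasted *Lpin1*+/+ and at 129, 239, and 486 in fasted *Lpin1*-/- liver. In refed liver *Glul* was at 423, 291, and 306 RPKM and at 351, 301, and 280.3 RPKM, and it was not called in any comparison.

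In tyrosine breakdown 1 of 5 genes passed the test. *Tat*, the transaminase that starts the pathway and a classical glucocorticoid target, spread widely: 1754, 303, and 300 RPKM in fasted *Lpin1*+/+, 981, 2111, and 3679 in fasted *Lpin1*-/-, 720, 346, and 636 in refed *Lpin1*+/+, and 2396, 981, and 1368 in refed *Lpin1*-/- liver. With the largest standard error of the 41 genes (0.687), its log2 fold changes of 1.86 fasted and 1.45 refed gave adjusted p values of 0.0821 and 0.241. Without *Lpin1*+/+ fasted replicate 1 the fasted value was 2.70 with an adjusted p of 0.00951 (range up to 0.262 over 18 alternatives). *Hgd*, homogentisate dioxygenase, was at 477, 303, and 394 RPKM in refed *Lpin1*+/+ and 689, 854, and 805 in refed *Lpin1*-/- liver (log2 fold change 1.02, SE 0.224, adjusted p = 0.0226, called in 13 of 18 alternatives). Its fasted groups overlapped, with 645, 508, and 496 RPKM against 656, 552, and 731 RPKM. *Hpd*, the step before it, did not overlap between the refed groups either (637 to 1562 against 2337 to 2775 RPKM) but missed the threshold (adjusted p = 0.12). *Gstz1* and *Fah*, the last 2 steps, overlapped between genotypes in both states.

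In tryptophan breakdown, *Tdo2* (chromosome 3, 81957090 to 81976202, minus strand), the heme dioxygenase that opens the ring in liver and sets the rate of the pathway, was higher in refed *Lpin1*-/- liver. Its levels were 991, 635, and 974 RPKM in *Lpin1*+/+ and 2232, 2390, and 2520 in *Lpin1*-/- (log2 fold change 1.48, SE 0.254, adjusted p = 0.00813, called in 18 of 18 alternatives). In fasted liver the groups were closer but still apart, at 1396, 1173, and 1143 RPKM against 1703, 2022, and 2559 RPKM (log2 fold change 0.75, adjusted p = 0.0625). *Kynu*, kynureninase, was at 65.1, 49.2, and 37.1 RPKM in refed *Lpin1*+/+ and 114, 106, and 102 in refed *Lpin1*-/- liver (log2 fold change 1.11, SE 0.284, adjusted p = 0.0418, called in 10 of 18 alternatives). The fasted groups of *Kynu* overlapped, at 135, 66.0, and 62.3 RPKM against 78.7, 69.5, and 79.2 RPKM. *Afmid*, *Kmo*, and *Haao*, the other steps, had refed log2 fold changes of -0.20, -0.15, and 0.12, and none was called. In fasted liver *Afmid* lay lower in every *Lpin1*-/- library (15.4 to 28.5 against 31.8 to 53.7 RPKM) and missed the threshold (log2 fold change -0.85, adjusted p = 0.0546).

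Among the 4 serine, glycine, and glyoxylate genes, 3 were higher in *Lpin1*-/- liver in both states and 1 was lower in fasted liver. *Sds* (chromosome 5, 120476526 to 120483932, plus strand), serine dehydratase, which turns serine and threonine into keto acids for glucose synthesis, was at 276, 189, and 111 RPKM in fasted *Lpin1*+/+ and 1317, 1012, and 810 in fasted *Lpin1*-/- liver, 5.68-fold higher on the fitted scale (log2 fold change 2.51, SE 0.307, adjusted p = 0.000583). In refed liver it was at 163, 169, and 137 RPKM against 569, 466, and 420.0 (log2 fold change 1.62, SE 0.307, adjusted p = 0.0121). Its neighbour *Sdsl* (chromosome 5, 120458186 to 120472810, minus strand), a serine dehydratase-like gene, was at 51.3, 30.7, and 21.2 RPKM in fasted *Lpin1*+/+ and 86.3, 131, and 164 in fasted *Lpin1*-/- liver (log2 fold change 1.89, SE 0.357, adjusted p = 0.00467). Refed, *Sdsl* was at 36.9, 28.6, and 18.0 RPKM against 144, 220, and 163 (log2 fold change 2.65, SE 0.357, adjusted p = 0.00238). For both genes the genotypes did not overlap in either state.

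*Agxt*, alanine-glyoxylate aminotransferase, which removes glyoxylate in peroxisomes, was likewise higher in *Lpin1*-/- liver, with 1 library far above its group in each state. It was at 198, 242, and 250 RPKM in fasted *Lpin1*+/+ and 1049, 413, and 525 in fasted *Lpin1*-/- liver (log2 fold change 1.41, SE 0.442, adjusted p = 0.0447, called in 7 of 18 alternatives). In refed liver it was at 209, 147, and 241 RPKM against 1368, 461, and 449 (log2 fold change 1.75, SE 0.442, adjusted p = 0.0391, called in 8 of 18 alternatives). *Gldc*, the decarboxylase of the mitochondrial glycine cleavage system, was lower in fasted *Lpin1*-/- liver, at 118, 48.6, and 52.7 RPKM in *Lpin1*+/+ and 13.5, 30.6, and 27.4 in *Lpin1*-/- (log2 fold change -1.54, SE 0.411, adjusted p = 0.0237). Without *Lpin1*+/+ fasted replicate 1 the difference missed the threshold (log2 fold change -1.13, adjusted p = 0.0699, within a range of 0.0175 to 0.0869). In refed liver *Gldc* overlapped, at 72.9, 30.5, and 34.2 RPKM against 52.3, 50.6, and 48.6 RPKM.

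In histidine breakdown all 4 genes had fasted log2 fold changes below 0, and 2 of them passed the test. Values below 0 were also found for 6964 of all 11507 genes and for all 3 proline and ornithine genes. The median of the 4 histidine genes was -0.91, and -0.58 without *Lpin1*+/+ fasted replicate 1. *Amdhd1*, imidazolonepropionase, was at 124, 110.4, and 122 RPKM in fasted *Lpin1*+/+ and 35.6, 48.1, and 77.2 in fasted *Lpin1*-/- liver (log2 fold change -1.20, SE 0.307, adjusted p = 0.0194). *Ftcd*, the last enzyme, which hands the 1-carbon unit to tetrahydrofolate, was at 241, 172, and 190 RPKM against 130, 104, and 106 (log2 fold change -0.81, SE 0.207, adjusted p = 0.0193). Without *Lpin1*+/+ fasted replicate 1 the value for *Ftcd* was -0.68 with an adjusted p of 0.0518 (range 0.0125 to 0.101 over 18 alternatives), and for *Amdhd1* -1.17 with 0.0464 (range 0.0093 to 0.0715). *Hal*, histidine ammonia lyase, the first step, was at 131, 76.9, and 70.8 RPKM in fasted *Lpin1*+/+ and 56.2, 46.1, and 91.8 in fasted *Lpin1*-/- liver, which overlap. In refed liver *Hal* was at 78.6, 54.0, and 61.7 RPKM against 108, 112, and 105 RPKM, apart but not past the test (log2 fold change 0.75, adjusted p = 0.142). *Uroc1*, urocanase, was at 130, 39.9, and 44.2 RPKM against 30.2, 27.3, and 32.2 in fasted liver (log2 fold change -1.02, adjusted p = 0.0774). In refed liver *Amdhd1* was at 101, 45.0, and 74.3 RPKM against 41.4, 51.2, and 49.6 RPKM and *Ftcd* at 227, 155, and 228 RPKM against 159, 190.1, and 186 RPKM, both overlapping.

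In transsulfuration and lysine breakdown, *Cth* and *Aass* were higher in *Lpin1*-/- liver in both states and under each of the 18 alternatives. *Cth* (chromosome 3, 157894248 to 157925077, minus strand), cystathionine gamma-lyase, which releases cysteine from cystathionine, was at 492, 324, and 299 RPKM in fasted *Lpin1*+/+ and 2450, 1518, and 1772 in fasted *Lpin1*-/- liver (log2 fold change 2.37, SE 0.265, adjusted p = 0.000399). In refed liver it was at 262, 180.4, and 199.8 RPKM against 1897, 1520, and 1742 RPKM, 8.07-fold apart on the fitted scale (log2 fold change 3.01, SE 0.265, adjusted p = 0.000419). The adjusted p over 18 alternatives stayed between 0.000285 and 0.0075 fasted and between 0.000309 and 0.0038 refed. *Cbs*, the enzyme before it, overlapped between genotypes, with 244, 120, and 145 RPKM against 66.0, 120, and 150 fasted and 172, 101, and 158 against 307, 166, and 181 refed. *Aass* (chromosome 6, 23072173 to 23132986, minus strand), the bifunctional enzyme of the first 2 steps of lysine breakdown, was at 209, 93.4, and 83.6 RPKM in fasted *Lpin1*+/+ and 427, 399, and 684 in fasted *Lpin1*-/- liver (log2 fold change 2.04, SE 0.362, adjusted p = 0.00342). Refed, *Aass* was at 98.2, 54.7, and 66.9 RPKM against 744, 534, and 506 RPKM (log2 fold change 3.02, SE 0.362, adjusted p = 0.0013). The genotypes of *Cth* and *Aass* did not overlap in either state.

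Of the branched-chain enzymes 1 of 5 was called. *Hibch*, which frees 3-hydroxyisobutyrate in valine breakdown, was at 37.7, 46.5, and 39.7 RPKM in fasted *Lpin1*+/+ and 18.1, 13.4, and 16.3 in fasted *Lpin1*-/- liver (log2 fold change -1.33, SE 0.211, adjusted p = 0.00196, called in 18 of 18 alternatives). In refed liver it was at 37.7, 29.1, and 29.6 RPKM against 14.2, 23.5, and 21.7 RPKM, lower in every library but not past the test (log2 fold change -0.69, adjusted p = 0.0752). *Bckdha* and *Bckdhb*, the subunits of the dehydrogenase that commits all 3 amino acids, were not called. *Bckdha* was at 192, 195, and 218 RPKM in fasted *Lpin1*+/+ against 120, 145, and 191 in fasted *Lpin1*-/- liver, and at 156, 124, and 210.4 against 161, 161, and 183 in refed liver. The refed median log2 fold change of the 5 genes was -0.010, beside 1.76 for the 6 urea cycle genes. *Ivd* and *Aldh6a1* had fasted log2 fold changes of -0.63 and -0.87 and were not called. Of the proline and ornithine genes, *Prodh*, proline dehydrogenase, was at 129, 70.6, and 75.1 RPKM against 46.1, 78.5, and 92.7 fasted, and at 72.8, 57.6, and 67.9 against 148, 112, and 111 refed (log2 fold change 0.89, adjusted p = 0.0916). *Oat* had a refed log2 fold change of 0.85 and *Aldh4a1* one of -0.22, with overlapping groups.

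**Figure D4:**
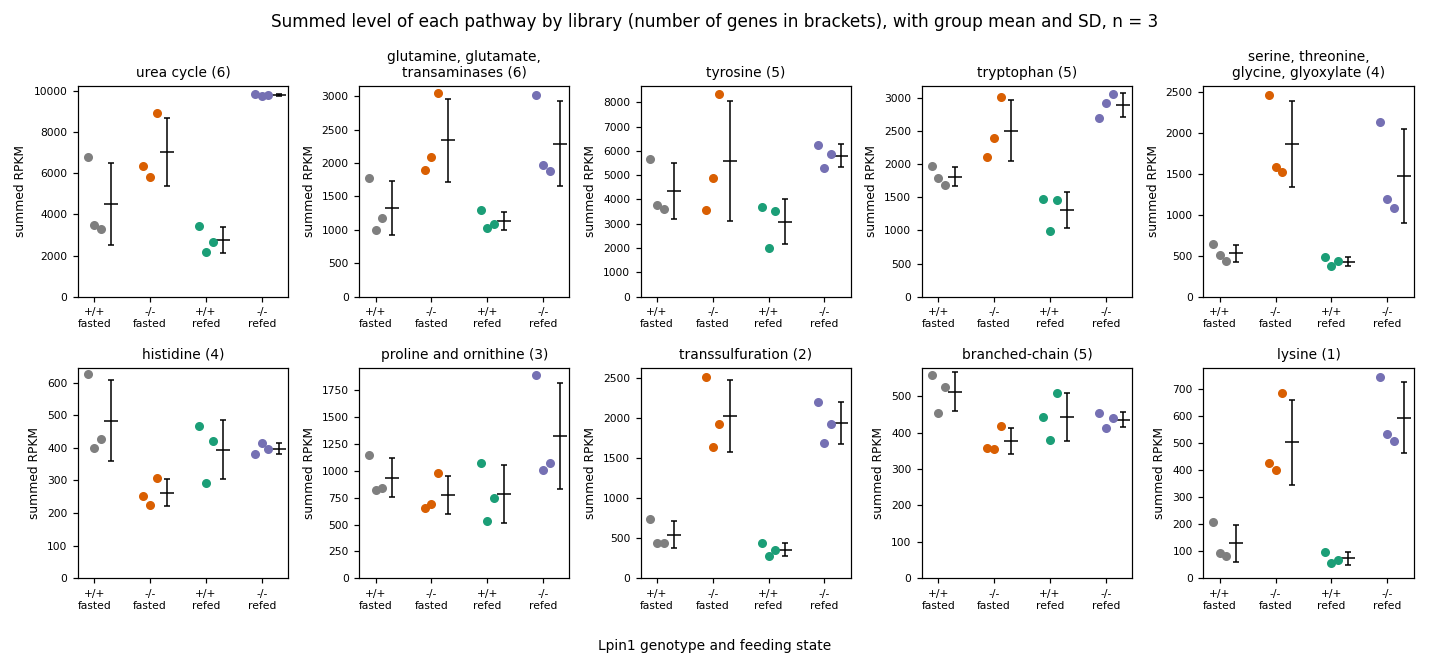
Summed RPKM of the genes of each pathway in each library (points), with the mean and SD of each group (dash and bar, n = 3), each pathway on its own axis from 0. The urea cycle sum was 2755 in refed *Lpin1*+/+ and 9811 in refed *Lpin1*-/- liver, while the branched-chain sums of the refed groups, 443 and 435, overlapped.

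By feeding state, no gene of the set passed the test in *Lpin1*+/+ liver: 0 of 41 were called by limma (1.72% of all genes), and 6 had an unadjusted p under 0.05, all of them lower after refeeding. Of the 41, 33 had a log2 fold change below 0, as did 3163 of all 11507 genes, and the median was -0.34, beside 0.19 over all genes tested. Without *Lpin1*+/+ fasted replicate 1 the median was -0.20 and the count again 0. In *Lpin1*-/- liver 3 of 41 genes rose with refeeding (7.32%, below the 17.8% of all genes called higher) and 1 fell (2.44%, beside 2.92%). *Nags* rose from 47.1, 48.4, and 51.2 RPKM to 109.5, 110.1, and 106.1 RPKM (log2 fold change 1.14, SE 0.16, adjusted p = 0.00128, called in 18 of 18 alternatives). *Glud1*, glutamate dehydrogenase, went from 188, 230.1, and 287 RPKM to 435, 405, and 354 (log2 fold change 0.77, SE 0.226, adjusted p = 0.0326), and *Ftcd* from 130.0, 104, and 106 to 159, 190.1, and 186 (log2 fold change 0.65, SE 0.207, adjusted p = 0.0447). *Sds* fell from 1317, 1012, and 810 RPKM to 569, 466, and 420.0 (log2 fold change -1.09, SE 0.307, adjusted p = 0.0283).

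For all 4 genes the fasted and refed *Lpin1*-/- libraries did not overlap. That was common in this comparison: 37.5% of all genes tested lay higher after refeeding without overlap, and 9.26% lower. Among the 41 genes the counts were 13 and 1. In *Lpin1*+/+ liver *Glud1* was at 368, 271, and 387 RPKM fasted and 349, 252, and 339 refed, and its log2 fold change there was -0.13. *Glud1* and *Ftcd* were not called once libraries were rescaled by their median ratios, which also moved the median of the 41 genes in *Lpin1*-/- liver from 0.28 to -0.087 and that of all genes from 0.25 to -0.028. The count of 4 was 1 without *Lpin1*-/- fasted replicate 1 or 2 or *Lpin1*-/- refed replicate 2 or 3, 2 without *Lpin1*-/- refed replicate 1, and 10 without *Lpin1*+/+ fasted replicate 1, which enters that comparison only through the shared estimate of the spread. Without that last library, 27.0% of all genes were called for feeding in *Lpin1*-/- liver. The difference between genotypes in the response to feeding, tested as an interaction, was called for 0 of 41 genes (1.28% of all genes). At an unadjusted p under 0.05 there were 14, all 14 above 0, without a share over all genes to set beside them. The median interaction of the 41 genes was 0.74, beside 0.094 over all genes, and 34 of 41 were above 0, beside 6441 of all 11507 genes. *Nags* came nearest the threshold (log2 0.97, SE 0.227, adjusted p = 0.0619), and it was the 1 gene called when *Lpin1*+/+ fasted replicate 2 was left out.

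Other enzymes of amino acid breakdown, a list of 76 genes of which 66 passed the filter, were counted in the same way. In fasted liver 5 of the 66 were higher in *Lpin1*-/- (7.58%, beside 5.63% of all genes) and 23 lower (34.8%, beside 13.2%), with a median log2 fold change of -0.67. Among the calls, the 2 largest increases were those of *Acmsd*, a branch point of tryptophan breakdown (2.53 to 18.7 RPKM in *Lpin1*+/+ and 35.5 to 58.0 in *Lpin1*-/-, log2 fold change 2.79, SE 0.619, adjusted p = 0.0104), and *Ahcy*, which hydrolyzes S-adenosylhomocysteine and has near-identical copies in the mouse genome, so that its level is uncertain (3.69 to 10.5 and 27.2 to 51.9 RPKM, 2.39, SE 0.365, adjusted p = 0.00163). The 2 largest decreases were those of *Hykk*, hydroxylysine kinase (9.15 to 36.5 and 1.47 to 3.34 RPKM, -2.34, SE 0.397, adjusted p = 0.00276), and *Ido2*, the indoleamine dioxygenase of liver (14.6 to 41.2 and 2.58 to 4.93 RPKM, -2.29, SE 0.35, adjusted p = 0.00163). In refed liver 5 of the 66 were higher (7.58%, beside 2.6% of all genes) and 2 lower (3.03%, beside 4.07%). *Mat1a*, which makes S-adenosylmethionine in liver, was at 657 to 1469 RPKM in *Lpin1*+/+ and 3477 to 5594 in *Lpin1*-/- (log2 fold change 2.23, SE 0.561, adjusted p = 0.0386). *Ido2* (19.5 to 34.0 and 6.24 to 8.57 RPKM, log2 fold change -1.60) and *Acat1*, a thiolase of isoleucine and ketone body metabolism (292 to 532 and 118 to 185 RPKM, -1.45), were the 2 that were lower.

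With refeeding, 11 of the 66 rose (16.7%) and 1 fell (1.52%) in *Lpin1*-/- liver, near the 17.8% and 2.92% of all genes. The largest rises were those of *Ddo*, D-aspartate oxidase (1.93 to 2.12 and 5.05 to 11.67 RPKM, 1.59, SE 0.265), and *Bhmt2*, a methyltransferase that makes methionine (45.5 to 98.3 and 175 to 194 RPKM, 1.48, SE 0.286). The fall was that of *Ahcy* (27.2 to 51.9 and 7.75 to 14.2 RPKM, -1.82, SE 0.365, adjusted p = 0.00641). The interaction was called for 1 of the 66, *Shmt1*, the cytosolic serine hydroxymethyltransferase (log2 1.81, SE 0.367, adjusted p = 0.0398, and 0.0661 without *Lpin1*+/+ fasted replicate 1).

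Since many of the 41 genes were higher in the same livers, their promoters were read for short sequences known to bind hormone- and stress-dependent factors. RefSeq promoters on GRCm38.p6 (250 bases before and 50 after the start) were matched for 32 of the 41 genes, 7 of which were called higher in *Lpin1*-/- liver in at least 1 state. The promoters of *Got1*, *Tdo2*, and *Aass* are shown for the 250 bases before the start because these genes had large differences in different pathways. Capitals mark any of the 8 motifs searched on both strands. The windows are chr19:43524606-43524855 for *Got1*, chr3:81975729-81975978 for *Tdo2*, and chr6:23132987-23133236 for *Aass*, all on the minus strand and written 5′ to 3′.
Got1: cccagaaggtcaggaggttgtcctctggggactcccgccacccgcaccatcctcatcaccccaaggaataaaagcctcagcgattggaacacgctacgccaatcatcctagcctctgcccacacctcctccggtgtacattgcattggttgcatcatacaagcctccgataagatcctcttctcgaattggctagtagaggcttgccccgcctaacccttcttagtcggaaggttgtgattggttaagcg
Tdo2: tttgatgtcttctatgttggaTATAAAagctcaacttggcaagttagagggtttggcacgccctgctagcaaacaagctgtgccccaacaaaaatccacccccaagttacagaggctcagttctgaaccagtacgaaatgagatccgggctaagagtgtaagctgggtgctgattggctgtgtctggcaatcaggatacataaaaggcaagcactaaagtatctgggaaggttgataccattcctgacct
Aass: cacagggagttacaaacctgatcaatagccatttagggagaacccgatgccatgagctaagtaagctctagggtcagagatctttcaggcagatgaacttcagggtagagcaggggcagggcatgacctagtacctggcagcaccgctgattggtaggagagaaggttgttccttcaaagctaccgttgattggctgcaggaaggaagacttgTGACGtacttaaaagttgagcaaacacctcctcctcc

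The *Aass* promoter held the 5-base core of the cAMP response element, TGACG, at position -37 from the start, and *Tdo2* the letters TATAAA, known from TATA boxes, at position -229. *Got1* held none of the 8 motifs as exact letters in this window. The 32 genes had 35 promoters, and a gene was counted if any of its promoters held the motif. Shares of all are per promoter, so the 2 kinds of share differ in unit. The core TGACG was in 5 of the 32 genes (*Aass*, *Ftcd*, *Gstz1*, *Nags*, and *Oat*), or 15.6%, and in 20.8% of all 32851 promoters of the table. The full element TGACGTCA, which contains that core, was in 0 of 32 and in 1.79% of all. The glucocorticoid receptor sequence TGTTCT was in 5 of 32 (15.6%, all promoters 19.0%), the HNF1 sequence GTTAAT in 3 (9.38%, all 7.1%), and TATAAA in 4 (12.5%, all 13.6%). The C/EBP palindrome TTGCGCAA (0.183% of all promoters) and the C/EBP-ATF elements TGATGCAAT (0.192%) and TGATGAAAC (0.247%) were in 0 of 32 as exact letters. The *Got1* promoter did hold gttgcatca, which on the other strand differs from TGATGCAAT only in its last base. Variants of the motifs were not searched, so the counts leave such near matches out. Of the 7 matched genes higher in *Lpin1*-/- liver, 2 had TGACG in a promoter, 2 TATAAA, and 1 TGTTCT. Such matches describe these letters in this window only.

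Splicing of the same genes was read from skipped exon (SE) events, for which each library has counts of reads that include an exon and of reads that skip it by joining the flanking exons of that event. Those flanking exons are not always the adjacent ones. The libraries of a group are listed there in a fixed order without replicate numbers. Exons of these genes were skipped more in fasted *Lpin1*-/- liver: of 1942 events tested, 306 in 30 of 41 genes were called (15.8%, with 11.3% of all 69644 events), 243 with lower inclusion (7.81% of all events) and 63 with higher inclusion (3.52%). Many events of a gene share reads and flanking exons, so they are not independent. The share of all genes with a called event was not counted, and a gene with more events tested has more room for a call. Counts of genes with called events therefore describe these genes only. In refed liver 37 of 1573 events in 8 genes were called (2.35%, with 0.97% of all 65231 events), all 37 with lower inclusion in *Lpin1*-/- (0.819% of all events, with 0.152% higher). The 8 genes were *Sds*, *Oat*, *Gpt*, *Hgd*, *Ftcd*, *Cps1*, *Gldc*, and *Hpd*, and each also had called events in fasted liver. The fasted count was 137 to 188 when any 1 of the 3 *Lpin1*+/+ libraries or of the first 2 *Lpin1*-/- libraries listed was left out, and the refed count was 0 when any 1 of the 6 libraries was left out. Where the exon and both of its splice partners are in the GENCODE annotation, 70 of 605 fasted events in 25 genes were called, and all 70 had lower inclusion in *Lpin1*-/- liver (11.6%). Of the 33661 such events of all genes 9.42% were called, 8.36% with lower inclusion. In refed liver 10 of 460 annotated events were called, all lower (2.17%, with 0.741% of all genes' annotated events called and 0.683% lower). None of the 63 events with higher inclusion had an exon in the annotation.

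For 3 coding exons the sequence is given as it stands in the transcript, because skipping of these exons rose from near 0 and they lie in both alanine aminotransferases and in the glycine decarboxylase. Capitals are the skipped exon, and lower case the 15 bases on each side from the neighbouring exons, from GENCODE M21 transcripts on GRCm38, 5′ to 3′. They are exon 4 of 11 of *Gpt* (chr15:76697542-76697675, plus strand, 134 bases), exon 22 of 25 of *Gldc* (chr19:30102979-30103074, minus strand, 96 bases), and exon 7 of 12 of *Gpt2* (chr8:85516158-85516237, plus strand, 80 bases). Only the *Gldc* exon has a length that is a multiple of 3.
Gpt: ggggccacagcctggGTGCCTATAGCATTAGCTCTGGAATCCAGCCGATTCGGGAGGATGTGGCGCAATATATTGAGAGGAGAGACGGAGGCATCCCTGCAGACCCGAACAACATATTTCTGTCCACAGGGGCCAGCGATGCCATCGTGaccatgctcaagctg
Gldc: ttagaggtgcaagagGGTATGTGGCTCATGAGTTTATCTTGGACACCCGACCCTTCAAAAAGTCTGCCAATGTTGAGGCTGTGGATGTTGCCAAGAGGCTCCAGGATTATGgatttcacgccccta
Gpt2: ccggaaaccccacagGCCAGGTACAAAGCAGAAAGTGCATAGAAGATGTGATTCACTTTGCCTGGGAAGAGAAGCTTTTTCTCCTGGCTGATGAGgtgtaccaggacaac

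The *Gpt* exon was skipped in 2, 0, and 0 reads of fasted *Lpin1*+/+ and in 413, 504, and 66 reads of fasted *Lpin1*-/- liver. Its inclusion, the length-normalized share of the including form, was at least 99.9% in each *Lpin1*+/+ library and 78.0%, 71.6%, and 96.4% in *Lpin1*-/- (log2 ratio of inclusion to skipping -8.45, SE 0.986, adjusted p = 0.000751). The level of *Gpt* itself was not called different between the fasted genotypes (adjusted p = 0.433). For *Gpt2* the skipping counts were 9, 3, and 1 against 242, 292, and 328, with an inclusion of 84.3%, 91.1%, and 92.3% (log2 ratio -5.64, SE 0.78, adjusted p = 0.00108), and for *Gldc* 0, 0, and 0 against 19, 41, and 6, with 93.9%, 93.1%, and 98.7% (log2 ratio -6.65, SE 0.877, adjusted p = 0.000904). No *Lpin1*-/- library had as few skipping reads as any *Lpin1*+/+ library for these 3 exons. In refed *Lpin1*-/- liver the same exons were skipped in 8, 4, and 5 reads (*Gpt*), 5, 7, and 5 (*Gldc*), and 11, 1, and 7 (*Gpt2*), of which *Gldc* passed the test (adjusted p = 0.0451).

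**Figure D5:**
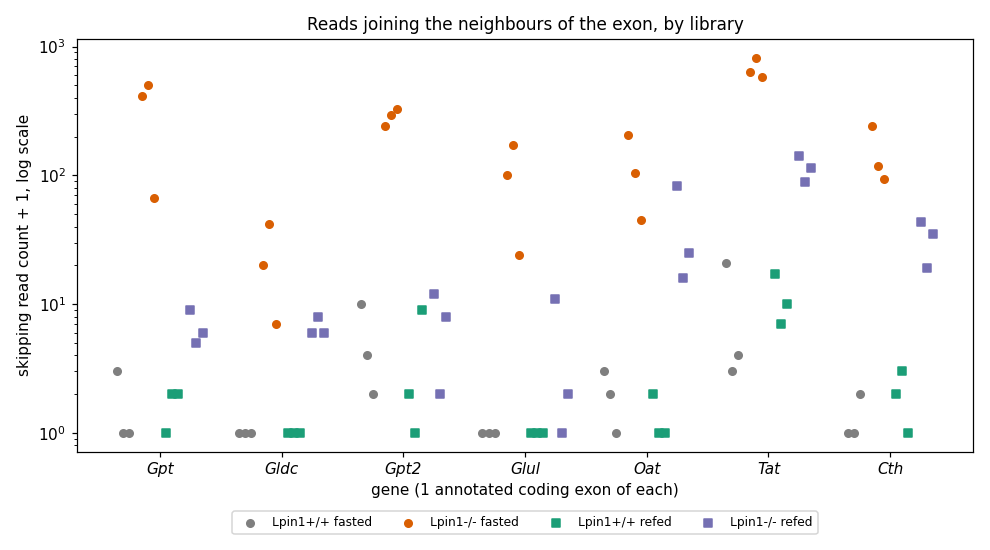
Skipping reads plus 1, on a log axis, for 1 annotated coding exon in each of 7 genes, with a point per library (circles fasted, squares refed). In fasted *Lpin1*-/- liver the counts of the *Gpt* and *Gpt2* exons lay between 66 and 504, against 0 to 9 in fasted *Lpin1*+/+ liver, and the refed *Lpin1*-/- counts of both exons lay between 1 and 11.

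Taking for each gene the called event of lowest p, 20 of the 30 fasted genes had lower inclusion in *Lpin1*-/- liver. In *Hgd* a 92-base coding exon (chr16:37613240-37613331, plus strand) was skipped in 1, 0, and 0 reads against 117, 82, and 72, all joining positions 37593459 and 37624257. Annotated exon 10 of 13 also lies in that span, so these reads skip more than this exon. Within that pair of forms, which is not all *Hgd* transcripts, inclusion was 79.4% to 90.9% in *Lpin1*-/- liver (adjusted p = 0.000726). In *Tat* a 231-base exon, not annotated as such, had an inclusion of 99.4% to 99.7% in *Lpin1*+/+ and 75.7% to 92.9% in *Lpin1*-/- liver (adjusted p = 0.00158). It overlaps annotated exon 9 of 12, whose inclusion with the same skipping reads was 94.3%, 96.7%, and 98.7% in *Lpin1*-/- liver. *Cth* and *Got1* had far higher expression in *Lpin1*-/- liver. In their called events of lowest p, the *Lpin1*-/- libraries still included the exon at 98.8% to 99.3% and 98.7% to 99.8%. Skipping reads were 0 to 1 against 93 to 242 for *Cth* and 0 against 23 to 81 for *Got1*. These *Got1* reads join positions 43503050 and 43506922. The same *Got1* exon, tested with a nearer flank at 43504687, had 55, 5, and 0 skipping reads against 395, 333, and 635. On that count the *Lpin1*-/- libraries included it at 96.1%, 96.9%, and 96.3%, beside at least 99.0% for *Lpin1*+/+ (adjusted p = 0.0399). In *Sds* a 69-base event not annotated as such had an inclusion of 74.9% to 100% in *Lpin1*+/+ and 5.73% to 43.7% in *Lpin1*-/- liver (adjusted p = 0.00403), from 12 to 35 including reads in *Lpin1*+/+ libraries. In *Hpd* a 110-base event, likewise, had 69.6% to 93.7% against 17.6% to 37.3% (adjusted p = 0.00754), from 13 to 78 including reads. Both overlap an annotated exon whose inclusion in *Lpin1*-/- liver was 92.6% to 99.4% for *Sds* and 99.7% to 99.9% for *Hpd*. *Tdo2*, *Fah*, and *Ftcd* had an inclusion of at least 98.2% in every library. The other 10 genes had higher inclusion of an exon that is not in the annotation. The clearest was a 79-base stretch of *Aass* (chr6:23098362-23098440, minus strand), with 1, 1, and 1 including reads in *Lpin1*+/+ and 366, 486, and 493 in *Lpin1*-/- liver, an inclusion of 0.194% to 0.452% against 19.1% to 23.6% (log2 ratio 5.99, SE 0.668, adjusted p = 0.000726). Its skipping reads join positions 23097202 and 23132881, a span that also holds annotated exon 10 of 24. These percentages are therefore shares within that pair of forms, not of all *Aass* transcripts. In *Aldh6a1* a 38-base exon had 0 including reads in the *Lpin1*+/+ libraries and 32, 21, and 27 in the *Lpin1*-/- libraries, and in *Kynu* a 121-base exon had 2, 0, and 2 against 170, 111, and 83. Those of *Asl* (85 bases), *Ass1* (83), *Aldh4a1* (109), *Ivd* (200), *Agxt* (96), *Bckdhb* (99), and *Arg1* (41) had an inclusion of at most 3.85% within their events in any library.

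The 11 genes with no called fasted event were *Nags*, *Otc*, *Glud1*, *Gstz1*, *Afmid*, *Kmo*, *Haao*, *Sdsl*, *Hal*, *Bckdha*, and *Hibch*, with 5 to 54 events tested each. Among them are *Nags*, whose level was called higher in *Lpin1*-/- liver only when refed, and *Sdsl*, called higher in both states. *Otc* and *Hibch*, whose level was lower in fasted *Lpin1*-/- liver, are also among them. Conversely *Gpt*, *Gpt2*, *Cps1*, and *Tat*, with skipped exons, had no call by level between the genotypes, although *Gpt2* and *Tat* in fasted liver and *Cps1* in refed liver were called without *Lpin1*+/+ fasted replicate 1.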

How the data were processed

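Total RNA from 12 livers was sequenced with stranded, paired-end libraries and each library was given as 1 column of a gene table. The authors aligned reads to GRCm38 with HISAT2 2.0.5, counted them per gene with HTSeq 0.6.0, and deposited RPKM values, which are scaled by transcript length and mapped reads and are not counts. The authors also deposited skipped exon tables with inclusion and skipping read counts per library, made with rMATS. The authors' own p-values, FDR, and inclusion differences in those tables, and their shorter tables of selected events and enriched terms, were not used.

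From the RPKM values, 1 limma fit (limma 3.58.1, R 4.3.3, trended empirical Bayes) of 4 groups was made on log2(RPKM + 1) for the 11507 of 22456 genes whose mean over the libraries reached 0.5 RPKM. Benjamini-Hochberg adjustment ran over all genes tested, and an adjusted p under 0.05 is a call. Fold changes are on the log2(RPKM + 1) scale, which understates those of low genes. For exon events, each library needed 10 or more reads. Inclusion and skipping counts were each increased by 0.5 and divided by the length of their form, and limma was run on the log2 of their quotient, with adjustment over all events. Both steps were tested on simulated data. Tables and plots were made with Python 3.11.15, pandas 2.3.3, numpy 2.4.6, and matplotlib 3.10.9.

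Groups and replicate numbers came from the sample titles, and each library is 1 mouse. The replicate numbers do not pair mice across groups. Genes with values in every library are all those called in at least 1 comparison and the first enzyme of each pathway. Of the other pathway genes, the 2 with the largest change in each direction in each comparison are named, except for some that are not reported here, and of exon events the called event of lowest p in each gene. The members and lists were chosen with earlier results of these data known. Counts of 18 alternatives leave out the condition on the fold change, which gives no new p. Alternatives were a pseudocount of 0.1, a minimum mean of 5 RPKM or no filter, libraries rescaled by their median ratio, the groups compared alone, a log2 fold change above 0.5 as a further condition, a replicate block, each library left out in turn, and, for exon events, 20 counts, 1 added to each count, and annotated events only, the last chosen after seeing the data. The motifs and promoter windows are those of RefSeq on GRCm38.p6, and gene positions are those of GENCODE M21.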

Additional observations from a re-analysis of the deposited data

How the results depend on the processing

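Of 30 single calls of the 41 genes, 15 held in every alternative and 15 were lost in at least 1, and over 570 values 475 kept their call, 95 lost it, and 0 changed sign. For each call, 1 of these values is the main fit under the condition on the fold change, which was not recomputed. Leaving out 1 library at a time gave 6 to 14 called genes by genotype in fasted liver, 9 to 16 in refed liver, 1 to 10 for feeding in *Lpin1*-/- liver, 0 for feeding in *Lpin1*+/+ liver, and 0 to 1 for the interaction, and a refed genotype median of 0.30 to 0.73. With the libraries compared alone, 7 genes were called in fasted liver and 15 in refed liver by genotype. For feeding, 6 were then called in *Lpin1*-/- liver and 0 in *Lpin1*+/+ liver. Rescaling moved the median for feeding in *Lpin1*-/- liver to -0.087. Called exon events numbered 137 to 389 fasted and 0 refed with 1 library left out, 102 refed with 1 added to each count, and 70 fasted and 10 refed among annotated events, of which fewer were tested. The causes of these shifts were not tested.

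With the replicate number as a replicate block, 11 genes were called in fasted and 13 in refed liver by genotype, 4 for feeding in *Lpin1*-/- liver, 0 in *Lpin1*+/+ liver, and 0 for the interaction. Libraries of the same number shared only a number: their deviations from the group means correlated at -0.474 to 0.743, above 0.1 in 8 of 18 pairs, and 4 of 12 libraries were closest to their own number. With 3 mice a group, small differences in genes as variable as *Tat* and *Cps1* were beyond these data, and RPKM tables carry no counts for an interval on each value.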
